A study of Mus musculus with 8 samples.

Results

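The mouse genome holds 39 protein-coding Hox genes, in the clusters Hoxa (11 genes), Hoxb (10), Hoxc (9) and Hoxd (9). They were taken by gene symbol from the deposited tables of ribosome-associated mRNA of adult spinal cord. Of the 39, 38 had a row of their own among 38924 gene rows, and the identifier of Hoxd4 had none. Of the 38 rows, 31 passed a filter on low counts and were tested, and 7 were not.

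Hox genes encode homeodomain transcription factors that bind DNA mostly together with Pbx, Meis and Pknox partners. Genes with the same paralog number are the most alike in sequence, and within a cluster genes with low numbers are transcribed in the anterior embryo and those with high numbers towards the tail. In the spinal cord they give motor neurons their segmental identity: Hox5 genes mark phrenic levels, Hoxc6 and Hoxc8 forelimb levels, Hoxc9 thoracic levels, and Hox10 genes lumbar levels that serve the hindlimb.

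All mice were described as wild type at Gars and carried 1 copy of Rpl22 with an HA tag that Cre recombinase switches on (entered as Rpl22 +/-), on a B6.CgxB6.129 strain background. Chat-Cre turns the tag on in cholinergic cells, which in the cord include motor neurons but also other cholinergic neurons, and ribosomes were pulled from homogenised whole cord with an antibody against HA. There were 2 Cre mice after crush of 1 sciatic nerve (animals 35 and 52, aged 18 and 9 weeks) and 2 crushed mice without Cre (51 and 58, 9 weeks). There were also 2 uncrushed Cre mice (3 and 10, 8 weeks) and 2 uncrushed mice without Cre (4 and 6, 8 weeks). Values in each group are given in that order of animals. The mice without Cre show which mRNA comes down without the tag. The cord was not divided by level or side, so neurons of all segments, and of the side with the intact nerve, share each Cre library. How long after crush the cords were taken is not stated in the labels. Crushed and uncrushed mice differ in age, and all uncrushed titles share a number of unstated meaning, so crush, age and that number cannot be told apart.

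Totals ran from 4826979 to 11522721 expected counts per library. Mitochondrial ribosomal RNA took 1.61 to 5.53% of counts in the Cre libraries, against 11.47 to 48.2% without Cre. Title and genotype disagreed for animal 3, titled as Cre uncrushed but entered as Chat +/+, and for animal 4, titled as an uncrushed control but entered as Chat +/-, and groups follow the titles. Summed levels of 6 motor neuron and cholinergic markers lay at 1524 to 1866 CPM (counts scaled to a common library size) in the Cre libraries, against 58.5 to 157 CPM without Cre, so in all 8 libraries this sum went with the title. The other marker sums ran the other way: 674 to 1748 CPM against 4243 to 7431 CPM for 5 oligodendrocyte genes, 187 to 480 CPM against 1383 to 3023 CPM for 5 astrocyte genes, and 172 to 260 CPM against 456 to 646 CPM for 5 interneuron genes. Microglial (3.77 to 10.4 CPM against 42.9 to 109 CPM), endothelial (28.0 to 44.9 CPM against 216 to 305 CPM) and meningeal sums (40.0 to 52.6 CPM against 307 to 342 CPM) were also lower with Cre. The sum of 5 sensory ganglion genes was higher (212 to 440 CPM against 9.64 to 49.5 CPM), but with Cre nearly all of it was Calca, which motor neurons also make. Calca was the 1 called of 3 tested. Scn10a and Avil, also tested, had lower group means with Cre, crushed and uncrushed. The median log2 fold change of the 3 over all libraries was -1.98. Ependymal sums overlapped (10.2 to 13.3 CPM with Cre, 6.63 to 18.2 CPM without). The part of these differences in the Hox results was not tested, and in material of whole cord fewer cells of a type and less RNA per cell cannot be told apart.

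Hox paralogs are close in sequence, which matters both for what the proteins bind and for how reads are assigned. To show how close, 60 bases of coding sequence that encode the recognition helix of the homeodomain and the residues around it are given for the paralog 8 genes, whose levels are set against each other in the results. Each window lies in 1 coding exon (GENCODE M21, GRCm38), is written 5′ to 3′ on the gene's strand, and has in capitals the bases that are not the same in all genes of its paralog group.
Hoxb8 (chr11:96284285-96284344, +): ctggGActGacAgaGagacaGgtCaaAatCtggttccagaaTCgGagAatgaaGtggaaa
Hoxc8 (chr15:102992682-102992741, +): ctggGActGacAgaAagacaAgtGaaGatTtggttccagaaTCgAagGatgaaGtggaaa
Hoxd8 (chr2:74706636-74706695, +): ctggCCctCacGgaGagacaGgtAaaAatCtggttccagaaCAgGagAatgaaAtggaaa
Within this window Hoxb8 shares 53 of 60 bases with Hoxc8 and 52 with Hoxd8, and Hoxc8 and Hoxd8 share 46. Over whole coding sequences the longest identical run between paralogs was 11 to 47 bases in 42 pairs, with a median of 17. It was 40 bases for Hoxb9 and Hoxd9, 26 for Hoxb8 and Hoxc8, 26 for Hoxa7 and Hoxb7, and 47 for Hoxb3 and Hoxd3. A read that falls wholly inside such a run can be split between the genes by the estimating program. The runs are short beside the coding sequences, but the read length is not stated in the labels.

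Hox transcripts were present in all 4 groups of adult libraries. Summed over the 38 rows, Hox mRNA reached 346 and 342 CPM in the Cre crushed libraries, against 334 and 443 CPM in the no-Cre crushed libraries. In the uncrushed libraries it reached 408 and 431 CPM with Cre, against 599 and 469 CPM without. These sums overlapped after crush and did not overlap without it, where both no-Cre libraries were higher. That order depended on the scaling. Scaled by library totals alone, the uncrushed sums were 436 and 403 CPM with Cre, against 313 and 338 CPM without. Both Cre libraries were then higher, so the direction for total Hox mRNA in uncrushed libraries is not settled. These totals include mitochondrial ribosomal RNA, at 2.33 and 5.53% of counts in the uncrushed Cre libraries, against 48.2 and 32.7% without Cre. The part of that RNA in the change of order was not tested. For levels between genes the deposited TPM were used, which scale transcripts for gene length and depth. The group mean was at least 1 TPM for 28 Hox genes in the Cre crushed, 29 in the no-Cre crushed, 26 in the Cre uncrushed and 26 in the no-Cre uncrushed libraries, and at least 10 TPM for 11, 12, 9 and 7 genes.

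**Figure D1:**
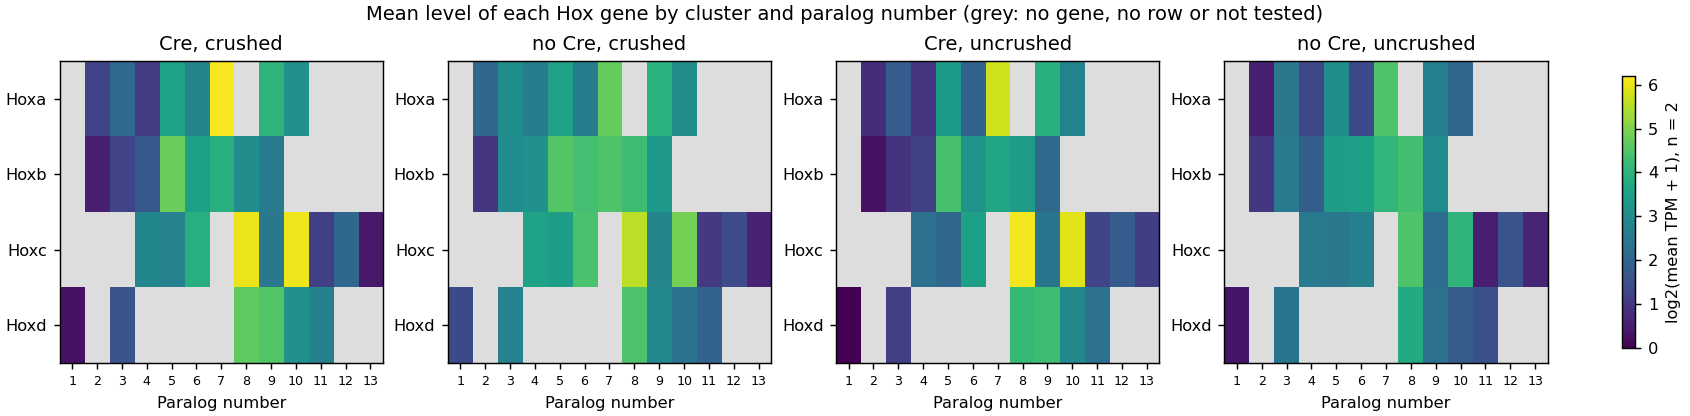
Mean TPM of each tested Hox gene (colour, log2(TPM + 1)) by cluster (rows) and paralog number (columns) in the 4 groups, n = 2 libraries each; grey marks positions with no gene, no row or too few counts to test. In both Cre groups the brightest squares are Hoxa7, Hoxc8 and Hoxc10, and paralogs 1 to 4 are dim in every cluster.

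In both Cre groups the 3 Hox genes with the highest mean TPM were Hoxa7, Hoxc8 and Hoxc10. TPM serve here to rank genes within a group, while the level of a gene is compared between libraries in CPM. In CPM the gaps between uncrushed Cre and no-Cre libraries were smaller. Hoxc8 had a mean of 88.3 CPM with Cre against 63.8 without, Hoxc10 of 65.0 against 37.9 and Hoxa7 of 60.9 against 52.7. None of these 3 genes was called in uncrushed libraries. Hoxc8 patterns motor pools of the forelimb region. Its level was 59.7 and 68.9 TPM in Cre crushed and 81.0 and 54.4 TPM in Cre uncrushed libraries, against 57.2 and 36.8 TPM in no-Cre crushed and 19.1 and 24.2 TPM in no-Cre uncrushed libraries. Hoxc10, a gene of lumbar motor neurons, lay at 64.9 and 65.9 TPM in Cre crushed and 59.6 and 59.4 TPM in Cre uncrushed libraries, against 28.8 and 28.7 TPM in no-Cre crushed and 15.4 and 15.4 TPM in no-Cre uncrushed libraries. Hoxa7, which shapes the trunk skeleton together with its paralog Hoxb7, lay at 71.3 and 66.7 TPM in Cre crushed and 57.4 and 48.3 TPM in Cre uncrushed libraries, against 24.6 and 26.4 TPM in no-Cre crushed and 14.6 and 28.3 TPM in no-Cre uncrushed libraries. Their order is not fixed: Hoxa7 was above Hoxc10 in both Cre crushed libraries and below it in both Cre uncrushed libraries, and the range of Hoxc8 spanned or overlapped theirs in both groups. The next genes were well below them: Hoxb5, Hoxd8 and Hoxd9 had means of 26.8 ± 1.4, 24.6 ± 0.1 and 22.0 ± 3.6 TPM in Cre crushed libraries and 20.1 ± 0.2, 16.8 ± 1.6 and 18.5 ± 1.2 TPM in Cre uncrushed libraries (SD, n = 2 each). At the low end, Hoxb1, a hindbrain gene, had no count in any library. The 7 rows that were not tested reached at most 1.6 TPM. A gene with no reads in a library could have stood at up to 0.19 to 1.17 CPM there, the level of 3 counts, which covers counting error only.

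The composition of the Hox mRNA differed between Cre and no-Cre libraries, with less from anterior genes and from the Hoxb cluster in every Cre library. Paralogs 1 to 4 took 4.61 and 4.51% of the summed Hox TPM in Cre crushed and 3.22 and 3.79% in Cre uncrushed libraries, against 14.9 and 12.8% in no-Cre crushed and 14.1 and 10.3% in no-Cre uncrushed libraries. Paralogs 9 to 13 took 32.9 to 35.6% with Cre, against 22.3 to 25.1% without. Shares are not independent of each other, so a larger share need not be a higher level. In summed CPM paralogs 9 to 13 overlapped (107 to 145 with Cre, 74.6 to 143 without). The share of paralogs 5 to 8, which held most of the Hox mRNA in every library, overlapped (60.5 to 62.6% with Cre, 61.2 to 67.4% without). By cluster, Hoxb took 14.5 to 17.7% with Cre, against 28.4 to 39.5% without, and Hoxc 39.7 to 44.7%, against 28.1 to 36.6%. Hoxd had 13.4 to 16.1% with Cre, against 11.8 to 12.9%, and Hoxa overlapped (24.3 to 29.1% with Cre, 19.7 to 26.2% without). The shares do not depend on library depth or on the share of ribosomal RNA, since they are taken within the Hox genes. The difference in share between the means of 4 Cre and 4 no-Cre libraries was -9.02 percentage points for paralogs 1 to 4, 10.9 for paralogs 9 to 13, -16.7 for Hoxb and 10.2 for Hoxc. Without the 2 libraries with contradictory genotype entries it was -8.39, 11.1, -13.9 and 8.11 points.

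**Figure D2:**
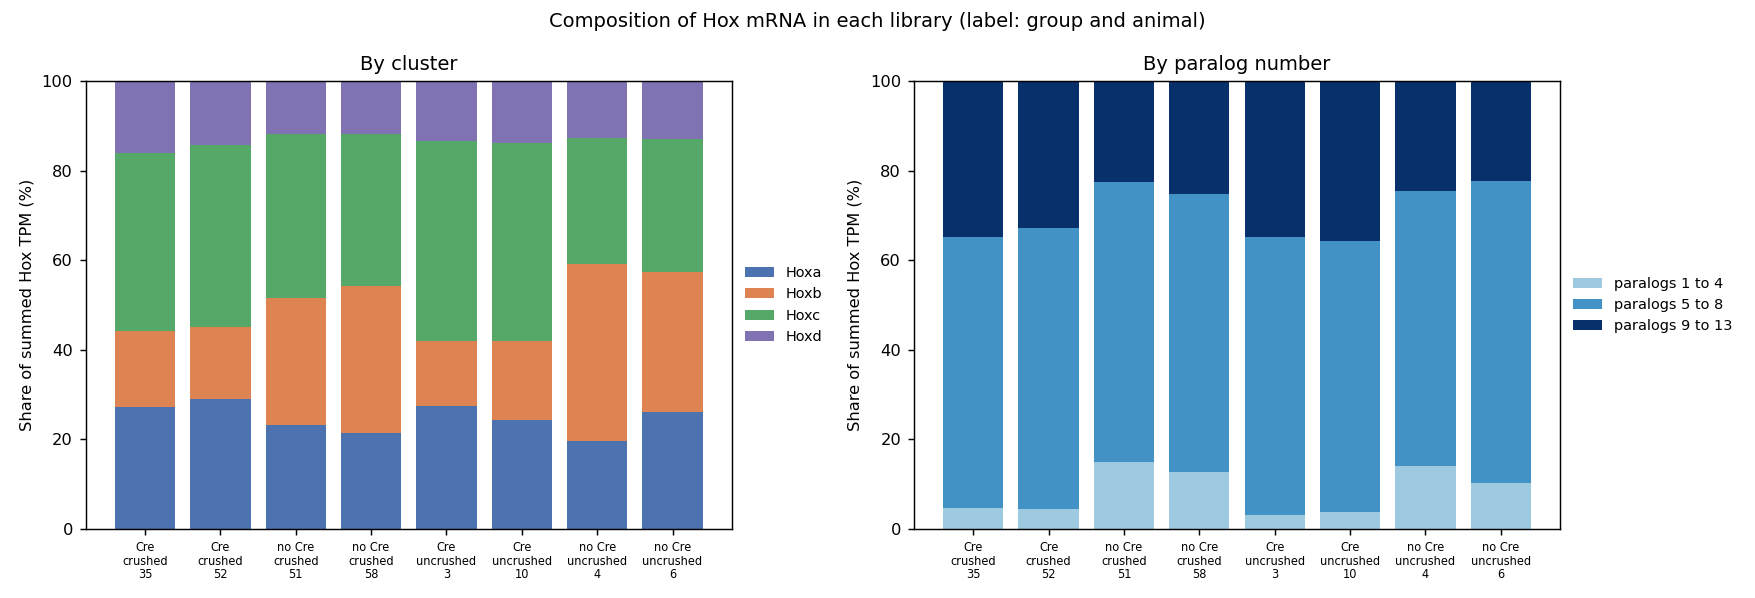
Share of the summed Hox TPM (%) held by each cluster (left) and by blocks of paralog numbers (right), 1 bar per library. With Cre, Hoxb holds 14.5 to 17.7% and paralogs 1 to 4 hold 3.22 to 4.61%, against 28.4 to 39.5% and 10.3 to 14.9% without Cre.

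Gene by gene, the question was which Hox mRNAs were more or less abundant in the Cre precipitates than in those without the tag. In a fit of the 8 libraries with crush as an additive term, edgeR's quasi-likelihood test (two-sided, Benjamini-Hochberg adjusted p under 0.05 over 15208 genes) called 2 of the 31 Hox genes higher and 14 lower with Cre. Among all genes tested, 28.7% were called higher and 31.2% lower. The median log2 fold change was -0.66 over the Hox genes and -0.07 over all genes. When libraries were scaled by their totals alone, 5262 of all genes were called higher and 3006 lower. The median of all genes then moved by 0.40, the Hox counts were 4 higher and 10 lower, and the Hox median was -0.25. Of the 31 Hox genes 8 changed sign, none of them called. Without the contradictory libraries 2 were called higher and 12 lower, where Hoxc4 and Hoxc9 were no longer called.

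The differences are described by blocks of paralog number and by cluster, with no test of a trend. Of 9 tested genes with paralog numbers 1 to 4, 7 fell and none rose (median log2 fold change -2.12). Of 11 with numbers 5 to 8, 5 fell and none rose (-0.59), and of 11 with numbers 9 to 13, 2 rose and 2 fell (-0.18). Within a cluster the genes did not follow this order throughout: Hoxb5 had a log2 fold change of -0.07 and lies between Hoxb4 (-2.11) and Hoxb8 (-1.96), and Hoxc9 (-0.77) was below Hoxc8 (0.27). By cluster, 6 of 8 Hoxb genes fell (median -1.75), 2 of 8 Hoxa genes fell (-0.45), 4 of 9 Hoxc genes fell and 1 rose (-0.43), and 2 of 6 Hoxd genes fell and 1 rose (-0.39). Over the 4 Cre and 4 no-Cre libraries, the levels of 2 genes were higher in every Cre library, those of 10 were lower in every Cre library, and those of 19 overlapped. How many of all genes tested separated in this way was not counted, so these counts are no result about the Hox genes.

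**Figure D3:**
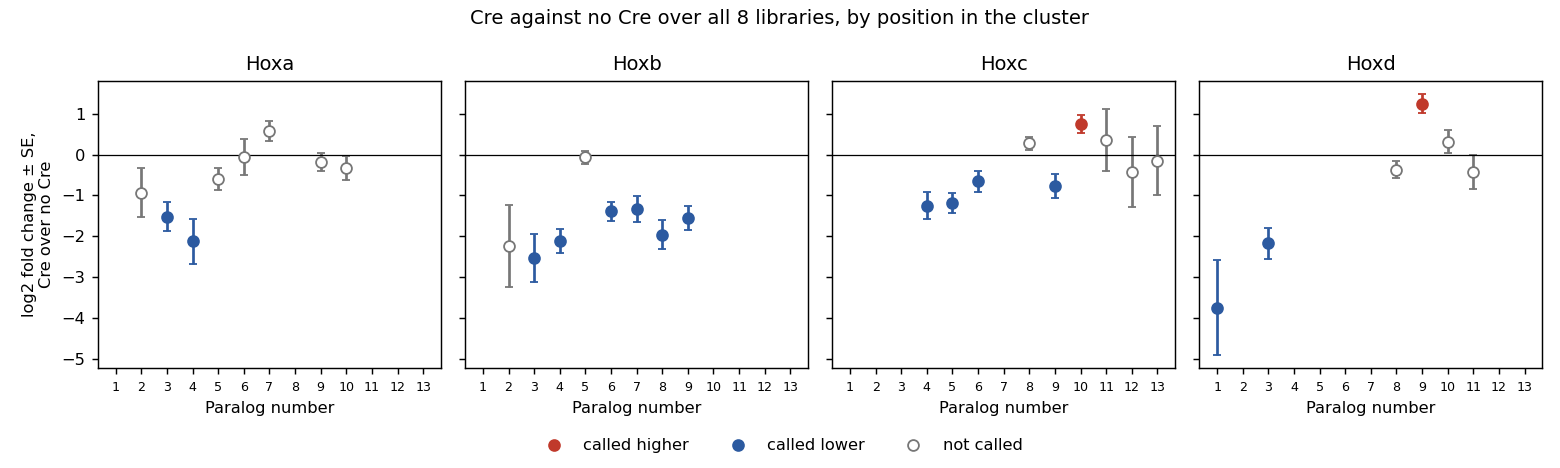
Log2 fold change of Cre over no-Cre libraries (± SE, all 8 libraries, crush as a covariate) against paralog number, 1 panel per cluster; filled points passed the test. Called genes are below 0 at paralogs 1 to 4 in every cluster and along Hoxb to paralog 9, while Hoxd9 and Hoxc10 are above 0; the point for Hoxd1 rests on few counts.

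Hoxd9 and Hoxc10 were the 2 called higher. Hoxd9, which with Hoxd10 takes part in the innervation of the hindlimb, reached 21.4 and 16.6 CPM in Cre crushed and 21.5 and 24.8 CPM in Cre uncrushed libraries, against 5.84 and 8.66 CPM in no-Cre crushed and 8.97 and 12.6 CPM in no-Cre uncrushed libraries. Every Cre library was above every no-Cre library, with a log2 fold change of 1.25 ± 0.23 (SE, edgeR adjusted p = 0.000531). It was called in crushed libraries alone (1.40 ± 0.33, edgeR adjusted p = 0.00604) and in uncrushed libraries alone (1.09 ± 0.33, edgeR adjusted p = 0.0220). Within uncrushed libraries this call was lost without animal 3, animal 10 or animal 4, and within crushed libraries without animal 35. Hoxc10 reached 48.9 and 48.5 CPM in Cre crushed and 57.5 and 72.5 CPM in Cre uncrushed libraries, against 19.8 and 40.0 CPM in no-Cre crushed and 44.8 and 31.0 CPM in no-Cre uncrushed libraries. Here too the groups did not overlap, and the log2 fold change was 0.75 ± 0.22 (SE, edgeR adjusted p = 0.0104). Hoxc10 did not pass within either crush status (edgeR adjusted p = 0.0936 crushed, 0.0725 uncrushed).

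The other posterior genes did not follow them. Hoxb9 and Hoxc9, paralogs of Hoxd9, fell: Hoxc9, which sets thoracic motor columns, had a log2 fold change of -0.77 ± 0.30 (SE, edgeR adjusted p = 0.0391), and this call was lost without any one of 7 of the 8 libraries, the exception being no-Cre crushed animal 58. Hoxb9, which acts with its paralogs in thoracic patterning, stood at 3.92 and 5.70 CPM in Cre crushed and 4.48 and 5.20 CPM in Cre uncrushed libraries, against 9.77 and 15.3 CPM in no-Cre crushed and 20.7 and 12.02 CPM in no-Cre uncrushed libraries. All 4 Cre libraries were lower, with a log2 fold change of -1.55 ± 0.29 (SE, edgeR adjusted p = 0.000508). Hoxa9 lay at 12.8 and 13.8 CPM in Cre crushed and 14.5 and 11.97 CPM in Cre uncrushed libraries, against 14.4 and 12.2 CPM in no-Cre crushed and 21.4 and 13.4 CPM in no-Cre uncrushed libraries. These overlapped (log2 fold change -0.18 ± 0.23, SE). The 4 paralog 9 genes thus had 1 higher, 2 lower and 1 not called. Among the paralog 10 genes, Hoxd10, a partner of Hoxc10 in lumbar motor neurons, had a log2 fold change of 0.32 ± 0.28 and Hoxa10 of -0.32 ± 0.30 (SE), and neither was called. Hoxc11, Hoxc12, Hoxc13 (a gene of hair and nails) and Hoxd11 had group means of at most 9.55 CPM, overlapping groups and log2 fold changes between -0.43 and 0.35.

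Ratios within a paralog group, chosen after their values were seen and given as a description, are free of scaling between libraries. The ratio of Hoxd9 to Hoxb9 TPM was 5.94 and 3.48 in Cre crushed and 5.14 and 5.63 in Cre uncrushed libraries, against 0.714 and 0.675 in no-Cre crushed and 0.307 and 0.989 in no-Cre uncrushed libraries. Hoxd9 thus exceeded Hoxb9 in every Cre library and in no library without Cre. The ratio of Hoxc8 to Hoxb8 was 8.94 and 8.86 in Cre crushed and 11.99 and 4.22 in Cre uncrushed libraries, against 3.66 and 1.72 in no-Cre crushed and 0.879 and 1.46 in no-Cre uncrushed libraries. The ratio of Hoxa7 to Hoxb7 was 4.47 and 5.62 in Cre crushed and 4.95 and 4.27 in Cre uncrushed libraries, against 1.27 and 1.11 in no-Cre crushed and 0.771 and 2.23 in no-Cre uncrushed libraries. In these 3 ratios the member of the Hoxb cluster was relatively rarer in every Cre library, but this did not hold for every Hoxb gene. The ratio of Hoxb5 to Hoxc5 was 4.63 to 7.18 with Cre, against 1.80 to 3.33 without, so there the Hoxb gene was relatively more abundant in every Cre library. The ratio of Hoxd8 to Hoxb8 overlapped, at 1.22 to 3.67 with Cre, against 0.536 to 1.73 without. Among ratios with no Hoxb gene, Hoxd9 to Hoxc9 (3.45 to 5.97 with Cre, against 0.773 to 2.03), Hoxc10 to Hoxa10 (7.90 to 13.4, against 3.55 to 5.10) and Hoxd10 to Hoxa10 (0.958 to 1.10, against 0.563 to 0.871) did not overlap, and Hoxa5 to Hoxc5 did (1.19 to 3.10, against 0.957 to 2.47).

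Among paralogs 5 to 8, genes of the same number parted by cluster. Hoxb8, whose loss makes mice groom excessively and alters spinal sensory circuits, was the one with the largest fall of this block. It stood at 6.77 and 8.15 CPM in Cre crushed and 9.25 and 22.4 CPM in Cre uncrushed libraries, against 14.7 and 40.1 CPM in no-Cre crushed and 86.6 and 43.3 CPM in no-Cre uncrushed libraries. Cre uncrushed animal 10 was above no-Cre crushed animal 51, so the 4 and 4 libraries overlapped, while within each crush status they did not. The log2 fold change was -1.96 ± 0.35 (SE, edgeR adjusted p = 0.000381). Hoxc8, by contrast, did not pass, at 55.1 and 62.1 CPM in Cre crushed and 95.4 and 81.2 CPM in Cre uncrushed libraries, against 48.2 and 62.8 CPM in no-Cre crushed and 67.8 and 59.8 CPM in no-Cre uncrushed libraries (0.27 ± 0.17, SE, edgeR adjusted p = 0.177). Hoxd8 did not pass either (-0.37 ± 0.21, SE).

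Hoxb6 and Hoxb7, both trunk patterning genes, fell (log2 fold changes -1.39 ± 0.24 and -1.33 ± 0.32, SE), with all 4 Cre libraries below all 4 without Cre. Hoxb6 lay at 5.57 and 6.72 CPM in Cre crushed and 7.89 and 6.11 CPM in Cre uncrushed libraries, against 15.5 and 12.7 CPM in no-Cre crushed and 23.8 and 18.7 CPM in no-Cre uncrushed libraries. Hoxb7 separated narrowly, with 8.33 CPM in Cre uncrushed animal 10 against 8.55 CPM in no-Cre crushed animal 51. It was not called within crushed libraries (edgeR adjusted p = 0.0748). Hoxa7, at 56.9 and 52.1 CPM in Cre crushed and 58.9 and 62.8 CPM in Cre uncrushed libraries, against 17.9 and 39.1 CPM in no-Cre crushed and 45.2 and 60.1 CPM in no-Cre uncrushed libraries, overlapped in the uncrushed libraries. Over all libraries it just missed the threshold (0.57 ± 0.24, SE, edgeR adjusted p = 0.0551). It was called higher in the crushed libraries (0.94 ± 0.32, SE, edgeR adjusted p = 0.0355), a call lost without both contradictory libraries and without any one of animals 3, 10, 35, 52 or 51. Hoxc6, a forelimb-level gene, was called lower (-0.66 ± 0.26, SE, edgeR adjusted p = 0.0431), and the call was lost without any one of the 8 libraries other than no-Cre uncrushed animal 4. Hoxc5 fell as well (-1.19 ± 0.25, SE, edgeR adjusted p = 0.00133), at 6.90 and 6.49 CPM in Cre crushed and 5.26 and 5.33 CPM in Cre uncrushed libraries, against 13.2 and 12.3 CPM in no-Cre crushed and 11.7 and 17.6 CPM in no-Cre uncrushed libraries. Hoxa5, which with Hoxc5 is needed for phrenic motor neurons, did not pass (-0.59 ± 0.27, SE, edgeR adjusted p = 0.0776). Hoxb5 was the 1 tested Hoxb gene with nearly equal levels, between 28.8 and 36.8 CPM with Cre and between 29.5 and 37.4 CPM without (-0.07 ± 0.16, SE). Hoxa6 also overlapped (-0.06 ± 0.44, SE).

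**Figure D4:**
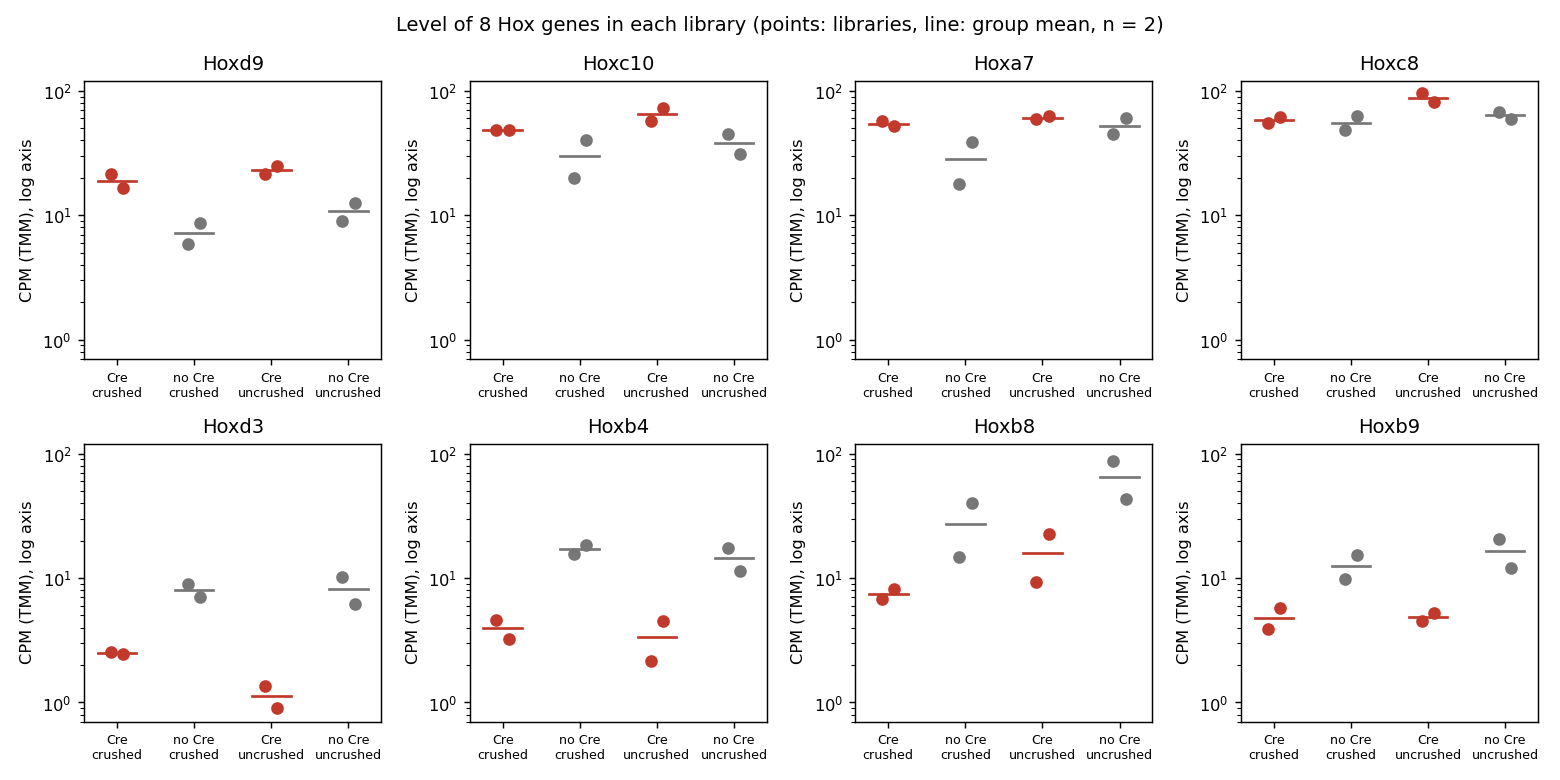
CPM (log axis) of 8 Hox genes in each library, by group; points are libraries and lines are group means (n = 2). Hoxd9 and Hoxc10 lie above and Hoxd3, Hoxb4 and Hoxb9 below in every Cre library, while Hoxa7, Hoxc8 and Hoxb8 overlap.

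The anterior genes were low in the Cre libraries. Hoxb4, which in the embryo has its anterior limit in the hindbrain and also acts in blood stem cells, stood at 4.62 and 3.24 CPM in Cre crushed and 2.14 and 4.55 CPM in Cre uncrushed libraries, against 15.6 and 18.5 CPM in no-Cre crushed and 17.5 and 11.48 CPM in no-Cre uncrushed libraries. Its log2 fold change was -2.11 ± 0.30 (SE, edgeR adjusted p = 6.42e-05), the smallest p of the 31. It was called both in crushed (-2.11 ± 0.42, SE) and in uncrushed libraries (-2.12 ± 0.45, SE), and each of these calls was kept without any one library. Without both contradictory libraries, which leaves 1 uncrushed library of each kind, the uncrushed value was -1.29. The row of Hoxd3 stood at 2.53 and 2.45 CPM in Cre crushed and 1.36 and 0.911 CPM in Cre uncrushed libraries, against 8.96 and 6.997 CPM in no-Cre crushed and 10.1 and 6.14 CPM in no-Cre uncrushed libraries. No library of one kind overlapped the other, and the log2 fold change was -2.16 ± 0.38 (SE, edgeR adjusted p = 0.000343). Of the 9 transcripts in that row, 3 belong to Hoxd4 and 1 to Gm28230 in GENCODE M21, so it measures Hoxd3 and Hoxd4 together. In the Hoxa3 row 1 of 5 transcripts belongs to Gm28308, and in the Hoxd11 row 1 of 3 to Gm28309.

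Hoxb3, Hoxa4, Hoxa3 and Hoxc4 fell by 2.53 ± 0.59, 2.12 ± 0.55, 1.52 ± 0.35 and 1.25 ± 0.34 on the log2 scale (SE), each with every Cre library below every no-Cre library. Hoxa3 and Hoxb3 are known for hindbrain and pharyngeal patterning, and the paralog 4 genes for the cervical vertebrae. Hoxa3 lay at 3.35 and 3.80 CPM in Cre crushed and 5.36 and 2.60 CPM in Cre uncrushed libraries, against 8.55 and 9.16 CPM in no-Cre crushed and 19.9 and 7.75 CPM in no-Cre uncrushed libraries. Hoxc4 lay at 5.32 and 4.59 CPM in Cre crushed and 3.31 and 6.11 CPM in Cre uncrushed libraries, against 10.99 and 9.83 CPM in no-Cre crushed and 19.1 and 6.94 CPM in no-Cre uncrushed libraries. In both genes no-Cre uncrushed animal 4 was far above animal 6. Hoxa4 and Hoxb3 were at or under 0.88 CPM in every Cre library, against 1.17 to 5.66 CPM without Cre. The 1.17 CPM of Hoxa4, in no-Cre uncrushed animal 4, was 3 counts. Hoxb3 had 3.1 to 10.96 expected counts in the Cre libraries, so both separations rest on few counts. Hoxd1, which in mice is expressed in pain-sensing neurons of the sensory ganglia, had 0 and 4 counts in Cre crushed and 0 and 0 in Cre uncrushed libraries, against 7 and 15 in no-Cre crushed and 0 and 4 in no-Cre uncrushed libraries. It passed the test over all libraries (edgeR adjusted p = 0.0135) but overlapped between the groups, and its call was lost without animal 35, 6 or 58. The hindbrain genes Hoxa2 and Hoxb2 had group means of at most 3.42 CPM and did not pass. Of the untested genes, Hoxa13, which shapes the ends of the limbs and the hindgut, had 1 and 1 counts in Cre crushed and 0 and 0 in Cre uncrushed libraries, against 1 and 0 in no-Cre crushed and 14 and 4 in no-Cre uncrushed libraries.

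Within each crush status the same comparison called fewer genes. In uncrushed libraries 1 Hox gene was called higher and 9 lower with Cre, where 20.6% and 21.9% of all genes were called, and the Hox median was -0.83 against -0.03 over all genes. In crushed libraries 2 were called higher and 9 lower, where 21.6% and 21.3% of all genes were called, and the medians were -0.62 and -0.08. Paralogs 1 to 4 had medians of -2.12 (uncrushed; -1.92 with Hoxd1 at the level of 3 counts) and -1.67 (crushed), paralogs 9 to 13 of -0.30 and 0.01. These counts rest on 2 libraries a group, so each omission of a library from the groups compared leaves 1 in its group. In every omission of 1 library below that lowered a Hox count, the calls in that direction over all genes fell as well. Those drops are thus no result about the Hox genes. Omission of both contradictory libraries leaves 1 Cre and 1 no-Cre library among the uncrushed ones. A change of the uncrushed counts through wrong labels and through lost replication cannot be told apart there. In crushed libraries the counts were then 1 higher and 11 lower. The count of lower genes fell to 4 without Cre uncrushed animal 3 and to 5 without no-Cre uncrushed animal 4 in the uncrushed comparison. In the crushed comparison it fell to 1 without Cre animal 35, to 3 without Cre animal 52, to 5 without no-Cre animal 51 and to 3 without no-Cre animal 58. The count of higher genes was 0 in uncrushed libraries without animal 3, 10 or 4 and 2 without animal 51 or 58. It was 0 in crushed libraries without animal 35 and 1 without animal 3, 10, 52 or 51. Over all libraries, 13 of the 16 calls were kept without any one library, the other 3 being Hoxc6, Hoxc9 and Hoxd1, and the count of higher genes was 4 without no-Cre crushed animal 58.

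Nerve crush gave no call among the Hox genes. In Cre libraries, crushed against uncrushed, edgeR called 0 of the 31 higher and 0 lower, where 0.0395% and 0.0329% of all genes were called. With edgeR 1 Hox gene had an unadjusted p under 0.05, while 9.34% of all genes did. Such edgeR values were thus no more frequent among the Hox genes. DESeq2 also called 0 Hox genes and had 2 under 0.05 (Hoxb8 and Hoxc8). Hoxc8 was that gene with edgeR: both crushed libraries (55.1 and 62.1 CPM) were below both uncrushed ones (95.4 and 81.2 CPM), a log2 fold change of -0.59 ± 0.22 (SE, edgeR adjusted p = 0.444). In libraries without Cre 0 were called higher and 0 lower, where 0.0197% and 0.0526% of all genes were called. Here 2 had an unadjusted p under 0.05 in both tools, Hoxa7 (-0.89 ± 0.33, SE, edgeR adjusted p = 0.328) and Hoxb8 (-1.24 ± 0.51, SE, edgeR adjusted p = 0.358). With edgeR 12.8% of all genes did, so such values were again no more frequent among the Hox genes. Hoxb8 was lower after crush in both kinds of library, at 6.77 and 8.15 CPM in Cre crushed against 9.25 and 22.4 CPM in Cre uncrushed libraries, and at 14.7 and 40.1 CPM in no-Cre crushed against 86.6 and 43.3 CPM in no-Cre uncrushed libraries. With Cre it did not pass (-1.07 ± 0.52, SE, edgeR adjusted p = 0.579). Without the filter on low counts Hoxb8 passed in the no-Cre libraries (edgeR adjusted p = 0.0211). Calls over all genes then rose as well, to 120 higher and 218 lower of 27670 tested. With the filter they were 3 and 8 of 15208. The median Hox log2 fold change was -0.17 with Cre and -0.37 without, but scaling by library totals alone turned both positive (0.26 and 0.64) while it moved the median of all genes by 0.44 and 0.96.

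The difference between the crush effects with and without Cre was called for 0 Hox genes in either direction, as for 0% of all genes. In this comparison 0 Hox genes had an unadjusted p under 0.05 with edgeR or DESeq2, while 5.95% of all genes did with edgeR. For Hoxd9 this difference was 0.31 ± 0.46 and for Hoxc10 -0.08 ± 0.46 (SE, log2). Hoxc6 had both crushed libraries below both uncrushed ones with Cre and the reverse without Cre, with a difference of -0.66 ± 0.49 (SE, edgeR adjusted p = 0.922). With 2 mice a group these standard errors leave room for sizeable changes in either direction.

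**Figure D5:**
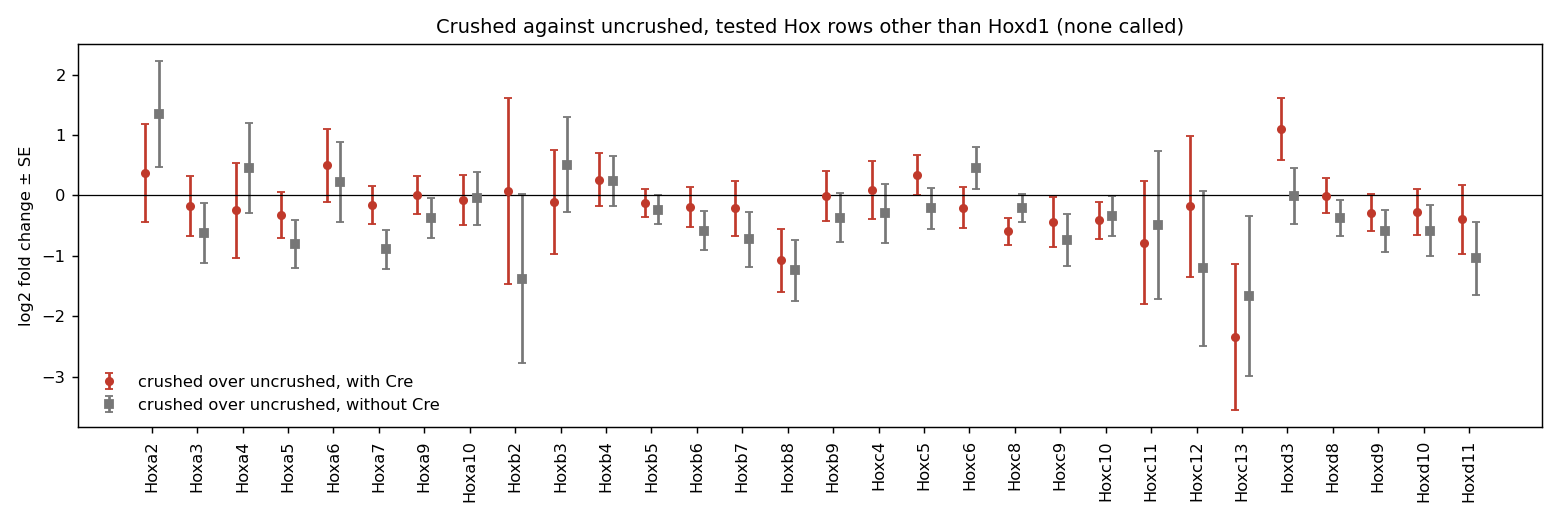
Log2 fold change (± SE) of crushed over uncrushed libraries for each tested Hox gene other than Hoxd1, with Cre (circles) and without (squares). Hoxc8 is below 0 with Cre and Hoxa7 without, Hoxb8 is below 0 in both, and no gene passed the test.

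The promoters of 4 genes called in opposite directions with Cre are shown so that they can be compared at their starts: Hoxd9 (higher over all libraries), Hoxa7 (higher with Cre among the crushed libraries, not called over all libraries), and Hoxb4 and Hoxb8 (lower over all libraries). Each runs from 250 bases before to 50 bases after the gene's start in RefSeq on GRCm38.p6, 5′ to 3′ on the gene's strand, at chr2:74697513-74697812 (+) for Hoxd9, chr6:52218524-52218823 (−) for Hoxa7, chr11:96318017-96318316 (+) for Hoxb4 and chr11:96281655-96281954 (+) for Hoxb8. Capitals mark TATAAA and CCAAT on either strand.
Hoxd9: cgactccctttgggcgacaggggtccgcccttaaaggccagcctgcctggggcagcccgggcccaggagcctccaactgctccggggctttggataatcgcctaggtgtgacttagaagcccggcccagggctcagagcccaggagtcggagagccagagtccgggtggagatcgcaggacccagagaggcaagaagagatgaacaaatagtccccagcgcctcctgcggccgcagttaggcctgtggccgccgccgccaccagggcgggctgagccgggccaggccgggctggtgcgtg
Hoxa7: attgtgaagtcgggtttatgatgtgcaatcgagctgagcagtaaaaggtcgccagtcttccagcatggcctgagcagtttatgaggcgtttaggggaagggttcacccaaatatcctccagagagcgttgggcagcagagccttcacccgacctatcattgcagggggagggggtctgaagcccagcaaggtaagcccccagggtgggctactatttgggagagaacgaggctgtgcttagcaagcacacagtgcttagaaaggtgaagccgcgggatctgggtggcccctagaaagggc
Hoxb4: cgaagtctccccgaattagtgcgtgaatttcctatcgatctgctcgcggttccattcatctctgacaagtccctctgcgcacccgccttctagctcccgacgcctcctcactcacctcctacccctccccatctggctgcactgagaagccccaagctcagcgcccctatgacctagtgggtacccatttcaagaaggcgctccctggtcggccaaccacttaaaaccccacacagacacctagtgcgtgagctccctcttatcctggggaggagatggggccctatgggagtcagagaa
Hoxb8: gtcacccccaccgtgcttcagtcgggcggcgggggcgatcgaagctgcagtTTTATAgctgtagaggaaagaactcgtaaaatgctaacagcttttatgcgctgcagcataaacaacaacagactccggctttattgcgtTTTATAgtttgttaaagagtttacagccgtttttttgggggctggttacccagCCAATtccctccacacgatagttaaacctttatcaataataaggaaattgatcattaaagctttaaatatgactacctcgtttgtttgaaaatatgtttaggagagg
The RefSeq table held 24 promoters of 22 Hox genes. CCAAT, searched on both strands, stood in 15 of the 24 (62.5%) and in 37.4% of all 32851 promoters of that length. TATAAA was in 4 (16.7%), against 13.6%, the Pbx and Hox composite TGATNNAT in 4 (16.7%), against 8.85%, the retinoid motif AGGTCA in 7 (29.2%), against 16.3%, and the posterior Hox motif TTTATNG in 2 (8.33%), against 10.9%. Overlapping matches of different motifs were each counted. Hox promoters held a median of 14.5 CpG, against 7 over all promoters, with a median GC content of 57.7%, against 52.7%. Of the 4 printed, Hoxd9 holds 20 CpG and none of these motifs, and Hoxa7 holds 9 CpG and none. Hoxb4 holds 14 CpG and 1 AGGTCA. Hoxb8 holds 13 CpG, 2 TATAAA, 1 CCAAT, 3 TTTATNG and 1 TGATNNAT. These are matches of letters, not measured binding sites.

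The proteins that Hox factors work with, and RNAs from the clusters themselves, were read from lists, whose counts stand beside 28.7% higher and 31.2% lower among all genes tested over all libraries. Of 9 Hox cofactor genes (Pbx, Meis and Pknox families), 4 fell with Cre over all libraries and none rose: Pknox1 (-1.46 ± 0.27), Meis1 (-1.03 ± 0.24), Pknox2 (-0.77 ± 0.24) and Meis2 (-0.70 ± 0.16; log2 fold change, SE). Meis2 lay at 21.6 and 21.8 CPM in Cre crushed and 21.5 and 21.3 CPM in Cre uncrushed libraries, against 33.7 and 32.0 CPM in no-Cre crushed and 39.8 and 35.3 CPM in no-Cre uncrushed libraries. The Pbx genes and Meis3, named here after their values were seen, did not pass. Of 14 noncoding RNAs of the clusters 4 were tested. Hoxd3os1 (-1.89 ± 0.39), Hoxb3os (-1.68 ± 0.48) and Hotairm1 (-2.25 ± 0.68) fell, all beside anterior Hox genes that fell, and Hoxaas3 did not pass (0.55 ± 0.38; log2 fold change, SE). The labels do not say whether counting used the strand, so reads of antisense RNAs and of the Hox genes they overlap cannot be told apart. The homeobox neighbours Evx1 and Evx2 were under the filter.

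Of 8 genes that act upstream of Hox genes along the axis, 5 were tested and 2 rose: Rara, a retinoic acid receptor (1.79 ± 0.32), and Cyp26b1, which breaks down retinoic acid (2.06 ± 0.42; log2 fold change, SE). Of 13 genes of motor neuron columns and pools, 12 were tested, 5 rose and 5 fell. Among all genes tested 28.7% rose and 31.2% fell, so calls in both directions were common outside these lists too. Lhx4 (3.05 ± 0.36) and Isl2 (3.46 ± 0.44), factors of motor neuron identity, rose, and Nkx6-2, a progenitor factor also made by oligodendrocytes, fell (-2.69 ± 0.53; log2 fold change, SE). Mnx1, the homeobox gene of motor neurons, stood at 10.4 and 10.9 CPM in Cre crushed and 15.7 and 17.8 CPM in Cre uncrushed libraries, against 0.136 and 1.33 CPM in no-Cre crushed libraries and no count in no-Cre uncrushed libraries. Crush gave no call in any of these lists, with or without Cre.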

How the data were processed

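Each of the 8 libraries came as a gene table of expected counts and TPM, deposited by the authors. Expected counts, RSEM's estimate of the reads from each gene, carry no scaling and were rounded to whole numbers here. TPM values are the authors' own, scaled for effective gene length and library. Bowtie2 2.2.0 and RSEM 1.2.12 are named per the submitters' processing notes. For genome build and annotation the sources used here name none. Ensembl identifiers matched a symbol for 37607 of 38924 rows (96.6%).

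Counts were tested with edgeR 4.0.16 in R 4.3.3 on all genes. filterByExpr (minimum count 10, minimum total 15) left 15208 genes, scaled by TMM. A quasi-likelihood fit with 1 mean per group used all 8 libraries (4 residual degrees of freedom), and the comparison over all libraries used Cre and crush as additive terms. Tests were two-sided, adjusted by Benjamini-Hochberg over all genes and called at 0.05. CPM values use the TMM totals, so levels of a gene are compared between libraries in CPM and levels of different genes in TPM. SE is the log2 fold change over the square root of F. p-values rest on the spread between 2 animals a group, shared over groups and moderated for each gene towards the trend over all genes. Part of each spread thus comes from other genes. The rule named all Hox genes, with values for those called or with a group mean of at least 1 TPM, and up to 4 members of each other list by smallest p. The members and lists were chosen with earlier results of these data known. Reference sequences came from RefSeq (GRCm38.p6) and GENCODE M21. Values of some items are not reported here. The scripts were tested on simulated data with known changes. Alternatives were DESeq2 1.42.0, other scaling, no filter, only the compared groups, grouping by genotype entry, omission of libraries, and age as a covariate. For shares, counts in place of TPM and omission of the rows of mixed transcripts or of the contradictory libraries were tried, chosen after seeing the data.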

Additional observations from a re-analysis of the deposited data

How the results depend on the processing

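No paired analysis was possible because the groups share no animal numbers. Regrouping by the genotype entry, which puts Cre uncrushed animal 3 without Cre and no-Cre uncrushed animal 4 with Cre, gave 0 calls among the Hox genes, and 0 among all genes, in every comparison. Under it the uncrushed log2 fold changes of Hoxa3 (0.75), Hoxb4 (0.70), Hoxb6 (0.15), Hoxb7 (0.84), Hoxb8 (1.06), Hoxb9 (0.64), Hoxc4 (1.30) and Hoxd3 (0.53), and that of Hoxc4 over all libraries (0.082), reversed. The cause was not tested.

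Of the Cre calls, the 1 higher gene in uncrushed libraries became 3 with library size alone, 2 with no filter, and 0 with only the groups compared or without both contradictory libraries, and was 0 to 2 without each library in turn. The 9 lower became 3 with library size alone and 3 without both contradictory libraries, and 4 to 11 without each library. In crushed libraries the 2 higher became 1 without the contradictory libraries and 0 with age as a covariate (0 to 3 without each library), and the 9 lower became 3 with library size alone and 1 with age (1 to 11). Over all libraries the 2 higher became 4 with library size alone (2 to 4 without each library), and the 14 lower were 11 to 14 without each library. Age within groups differs only between Cre crushed animals 35 and 52, so that term chiefly sets those libraries apart. Without both contradictory libraries each uncrushed group holds 1 library, so wrong labels and lost replication cannot be told apart in the uncrushed counts. The crush calls without Cre went to 1 (Hoxb8) with no filter, where 120 of 27670 genes were called higher and 218 lower. Library size alone moved the median of all genes by 0.68 (uncrushed), 0.14 (crushed) and 0.40 (all libraries). Calls over all genes moved with these settings too. In uncrushed libraries library size alone called 4753 genes higher and 1463 lower, against 3137 and 3331 with TMM. In crushed libraries it called 2837 higher and 1922 lower, against 3286 and 3235 with TMM. With age as a covariate the crushed calls over all genes were 1724 higher and 1034 lower.

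In shares, paralogs 9 to 13 gave a difference of 9.05 points by counts (10.5 to 11.48 without each library), Hoxc 8.11 without the contradictory libraries (8.92 to 11.7), paralogs 1 to 4 -6.58 without the rows of mixed transcripts (-9.93 to -8.39) and Hoxb -18.2 to -14.5 without each library. Of the 37 called values of single genes, 36 kept their call with DESeq2, 37 with its size factors and 33 with no filter, while 16 lost it with library size alone, 14 with age as a covariate and 10 without both contradictory libraries. With only the groups compared 19 kept it and 2 lost it, and with grouping by the genotype entry 28 lost it and 9 reversed. Of 296 values without 1 library, 225 kept the call, 71 lost it and none reversed.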

Other observations

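Genes that keep Hox clusters silent or active were read from 2 further lists. Of 20 Polycomb genes, which encode repressors of Hox clusters, 3 rose and 7 fell with Cre over all libraries (median log2 fold change -0.46), among them Phc1 (-2.15 ± 0.30), Jarid2 (-1.22 ± 0.18), Phc3 (-0.98 ± 0.15) and Mtf2 (-1.07 ± 0.19; SE). Of 12 Trithorax and related genes, which encode activators, 4 rose and 7 fell (median -1.14). Kmt2a, the Hox-activating histone methyltransferase of mixed-lineage leukaemia, fell (-1.78 ± 0.22), as did Kmt2b (-1.38 ± 0.21) and Kmt2c (-1.54 ± 0.24), while Men1, a partner of Kmt2a, rose (1.48 ± 0.22; SE, log2). All were called by edgeR's quasi-likelihood test, where 28.7% of all genes were called higher and 31.2% lower. The Polycomb counts lie near or below these shares, so they are no result about that list. Summed levels were 329 to 370 CPM with Cre against 431 to 500 CPM without for the Polycomb list, and 361 to 580 CPM against 785 to 1271 CPM for the Trithorax list. No gene of either list was called after crush, with or without Cre.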
